A study of Rattus norvegicus with 2 samples.

Results

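The transcription machinery described here is the set of 49 protein-coding genes whose rat symbols begin with Polr, Gtf, or Med or Taf followed by a digit, and whose mean over both libraries was at least 1 FPKM (fragments mapped to a gene, for a given transcript length and sequencing depth). They are 49 of the 4366 genes that reached this mean, which are called measured below. The gene table used for names holds 113 protein-coding genes with such symbols. Of these, 58 were listed in the files, 9 of the 58 lay under the mean of 1 FPKM, and the other 55 were not analysed here. The members fall into 5 genes for subunits of RNA polymerase I, 6 for polymerase II, 6 for polymerase III, 2 for subunits that polymerases I and III share, 15 for Mediator, 6 for TFIID and 9 for other general factors.

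RNA was sequenced from H9c2 cells, a line of myoblasts from embryonic rat heart, after 12 h in serum-free DMEM with 2.5 mM phosphate (high phosphate) or 0.9 mM phosphate (control). Before that, both cultures were grown in DMEM with 10% fetal bovine serum and antibiotics, and the labels name no genetic change in either. There was 1 library per phosphate level, so every difference below sets 1 culture against another, without a replicate, a test or a p-value. The comparison asks how raised extracellular phosphate alters the transcriptome of these cells.

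RNA polymerase I makes the precursor of the large ribosomal RNAs, polymerase II makes messenger RNAs, and polymerase III makes transfer RNAs and other short RNAs. Each has subunits of its own and subunits it shares with the others. At polymerase II promoters, TFIID recognises the core promoter through the TATA-binding protein and its associated factors (TAFs), the factors TFIIA to TFIIH assemble with the polymerase, and Mediator passes the signals of DNA-bound activators to it. In growing cells the output of polymerases I and III is tied to ribosome and protein synthesis.

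Most genes of the machinery stood slightly lower in high phosphate, and the share of them close to 0 was near that of all measured genes. Of the 49 members, 36 (73.5%) had a log2 ratio below 0 and 13 above 0, where 49.4% of all measured genes lay below 0. Ratios are log2((high phosphate FPKM + 1)/(control FPKM + 1)), so at low values they are closer to 0 than the listed FPKM would give. The median log2 ratio was -0.09 for the members, against 0.00 for all measured genes. No member was at least 2-fold higher, against 1.76% of all measured genes, and 1 member, the Mediator subunit gene Med7, was at least 2-fold lower, against 0.87% of all measured genes. At 1.5-fold, no member was higher, against 7.24% of all measured genes, and Med7, Polr3c and Polr1b were lower, against 3.37% of all measured genes. This background depended on the scaling of the libraries: with the sums of listed FPKM made equal, 4.47% of all measured genes were at least 1.5-fold higher and 6.62% lower, against 0 and 4 members (8.16%), Polr1g being the added one. At 2-fold the shares of all measured genes were then 1.24% higher and 1.28% lower. The middle 50% of log2 ratios ran from -0.25 to 0.00 over the members and from -0.17 to 0.22 over all measured genes. Within 0.25 of 0 lay 31 members, 63.3% of them, against 59.9% of all measured genes.

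The members are drawn by complex in the plot of levels, where the filled point of a gene stands left of its open point when high phosphate was lower.

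**Figure D1:**
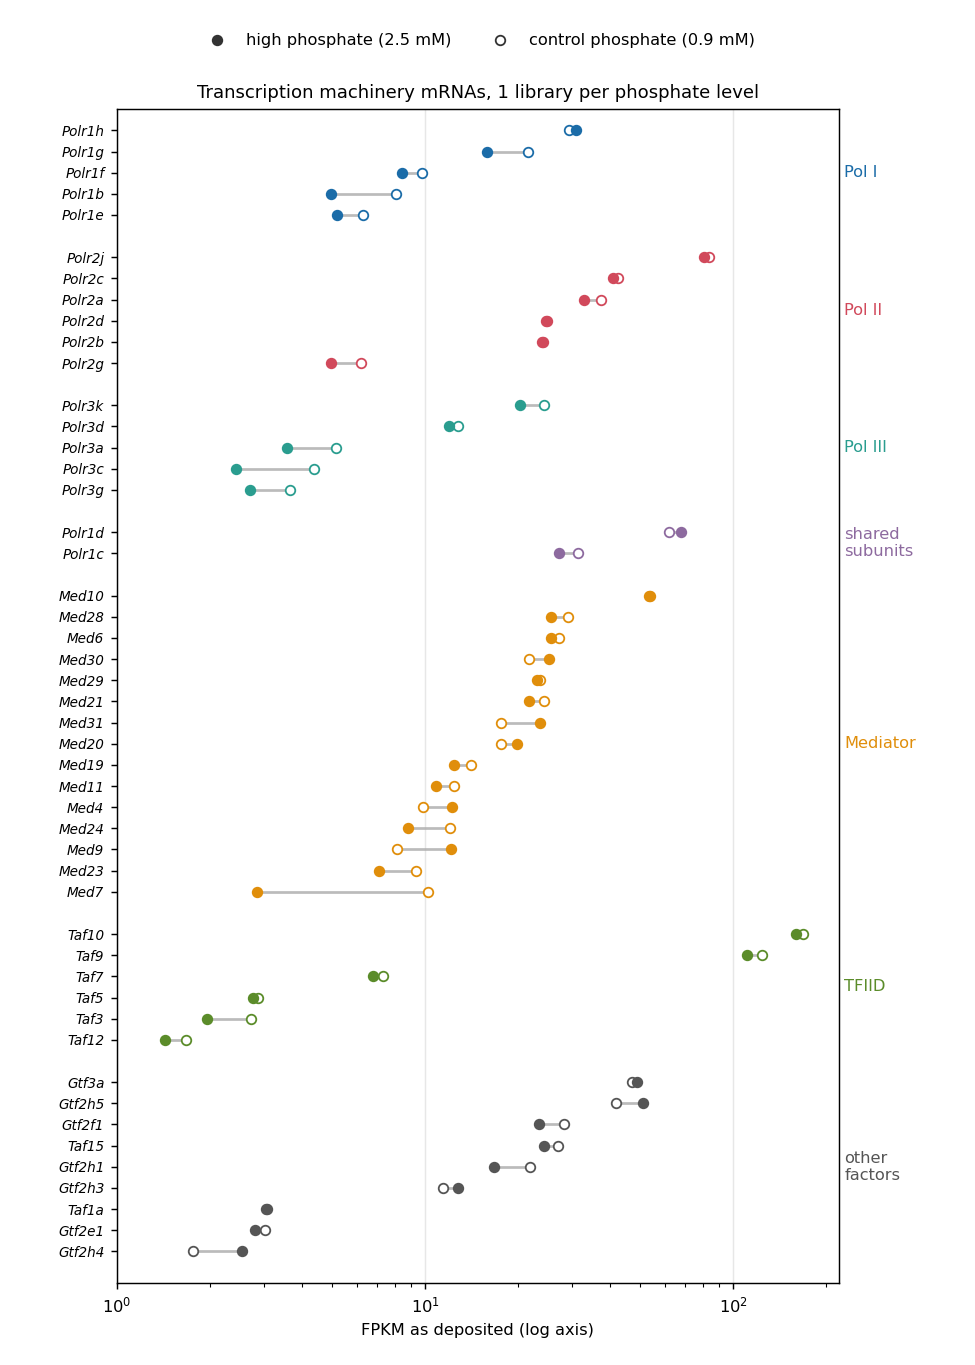
FPKM as deposited of 48 of the 49 members (horizontal log axis), with high phosphate as filled and control as open points, 1 library each, grouped by complex and ordered by mean FPKM within it. Levels run from Taf12 at 1.43 FPKM in high phosphate and 1.67 FPKM in control to Taf10 at 160 FPKM in high phosphate and 168 FPKM in control, and Med7 has the widest gap.

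The promoters of the genes at least 1.5-fold apart, Med7, Polr3c and Polr1b, and of Med9, the member with the highest log2 ratio, follow, as the 250 bases before the annotated start, 5′ to 3′ on the strand of the gene, from RefSeq in the build GRCr8, which is not the build named for the files. Capitals mark the letters of the motifs searched on both strands. These were the TATA box, searched as TATAAA, the GC box of SP1, as GGGCGG, the ETS core, as CCGGAAG, the CCAAT box under its own letters, the E-box, as CACGTG, the NRF1 core, as TGCGCA, and the hypoxia response element, with ACGTG or GCGTG as its core. ACGTG lies within CACGTG, so each E-box is also counted for it.
Med7 (chr10:31354787-31355036, plus strand): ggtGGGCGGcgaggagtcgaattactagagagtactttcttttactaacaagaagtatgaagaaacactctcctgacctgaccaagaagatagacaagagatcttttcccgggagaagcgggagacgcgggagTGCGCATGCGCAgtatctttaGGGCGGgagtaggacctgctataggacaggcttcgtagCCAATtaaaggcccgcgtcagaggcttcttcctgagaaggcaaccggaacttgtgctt
Polr3c (chr2:186950963-186951212, minus strand): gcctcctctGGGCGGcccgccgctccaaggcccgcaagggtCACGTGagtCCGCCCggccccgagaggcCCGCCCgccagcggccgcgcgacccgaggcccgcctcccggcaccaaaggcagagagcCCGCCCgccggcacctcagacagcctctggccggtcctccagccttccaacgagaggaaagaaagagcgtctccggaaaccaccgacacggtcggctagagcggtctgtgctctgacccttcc
Polr1b (chr3:136786880-136787129, plus strand): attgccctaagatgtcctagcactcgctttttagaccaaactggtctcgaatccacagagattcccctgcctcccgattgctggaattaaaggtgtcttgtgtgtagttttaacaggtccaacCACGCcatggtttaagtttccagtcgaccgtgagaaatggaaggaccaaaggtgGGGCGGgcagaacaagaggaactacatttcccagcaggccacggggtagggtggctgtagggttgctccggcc
Med9 (chr10:45249979-45250228, plus strand): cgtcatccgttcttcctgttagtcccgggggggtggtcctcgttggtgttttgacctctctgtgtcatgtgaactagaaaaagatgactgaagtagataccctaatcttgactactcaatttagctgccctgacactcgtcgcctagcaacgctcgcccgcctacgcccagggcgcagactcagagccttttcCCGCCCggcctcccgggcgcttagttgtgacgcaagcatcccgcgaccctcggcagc

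The Med7 promoter held TGCGCA starting 117 and 111 bases before the start, which together form the palindrome bound by NRF1. It also held GC boxes 247 and 96 bases and a CCAAT box 58 bases before the start. Polr3c had an E-box 209 bases before its start and 4 GC boxes. Single GC boxes stood 73 bases before the start of Polr1b, which also held GCGTG on the other strand 127 bases before its start, and 57 bases before that of Med9. Over the 43 members with a promoter in the table, 62.8% held the GC box, against 60.8% of the 3609 promoters of measured genes and 32.4% of all 27457 promoters. The ETS core was present in 34.9% of the member promoters, against 19.3% of those of measured genes and 7.74% of all. The E-box was present in 20.9% of the member promoters, against 9.26% of those of measured genes and 5.8% of all. The NRF1 core was also present in 20.9%, against 13.1% of those of measured genes and 6.57% of all. TATAAA was present in 4.65% of the member promoters, those of Polr1f and Polr2a, against 6.68% of those of measured genes and 13.1% of all. The CCAAT box was present in 32.6% of the member promoters, against 37.7% of those of measured genes and 34.3% of all. ACGTG was present in 34.9%, against 25.1% of those of measured genes and 17.0% of all, and GCGTG in 41.9%, against 47.3% of those of measured genes and 27.2% of all. These shares describe the letters in the windows and were not tested. Not in the table were, among others, the promoters of Med30, Polr2c, Polr3d, Taf15 and Taf1a.

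Genes for subunits found only in polymerase I had a median log2 ratio of -0.24 as deposited. They stood lower in high phosphate in 4 of 5 cases as deposited and in 5 of 5 with the library sums made equal. Of all measured genes, 49.4% were lower as deposited and 67.8% at equal sums. These shares are the background for the counts of every complex below. Polr1b (Entrez 83582), which encodes the second-largest subunit and forms part of the active centre, was listed at 4.95 FPKM in high phosphate, against 8.03 FPKM in control (log2 ratio -0.60). Polr1g, one partner of the heterodimer that helps the enzyme initiate, had 15.9 FPKM in high phosphate and 21.6 FPKM in control (log2 ratio -0.43). Its partner Polr1e had 5.19 FPKM in high phosphate and 6.3 FPKM in control (log2 ratio -0.24). Both genes of the heterodimer thus stood lower. The stalk subunit gene Polr1f had 8.44 FPKM in high phosphate and 9.8 FPKM in control (log2 ratio -0.19). Polr1h, whose product cleaves backtracked RNA, was the most abundant of these mRNAs and the 1 that was not lower as deposited, with 30.9 FPKM in high phosphate and 29.4 FPKM in control (log2 ratio 0.07). Polr1a, for the largest subunit, was not analysed here.

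Polymerase III resembled polymerase I in direction and size, with 5 of 6 genes lower in high phosphate, 6 of 6 at equal sums, and a median log2 ratio of -0.29. The initiation heterotrimer was represented by Polr3c (Entrez 310685), listed at 2.43 FPKM in high phosphate, against 4.37 FPKM in control (log2 ratio -0.65), the lowest ratio among all polymerase genes measured. Another gene of the heterotrimer, Polr3g, known as the form of proliferating cells, had 2.71 FPKM in high phosphate and 3.64 FPKM in control (log2 ratio -0.32). Polr3a, for the largest, catalytic subunit, had 3.56 FPKM in high phosphate and 5.14 FPKM in control (log2 ratio -0.43). These 3 genes were also the least abundant of the group. Polr3k, for the RNA cleavage subunit, had 20.3 FPKM in high phosphate and 24.4 FPKM in control (log2 ratio -0.25). Polr3d, for a subunit that acts in initiation and termination, had 11.9 FPKM in high phosphate and 12.8 FPKM in control (log2 ratio -0.09). The median of the group depended on its low genes: over its 3 members from 5 FPKM upward it was -0.09.

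For polymerase II the libraries lay close together, with 5 of 6 genes lower, 6 of 6 at equal sums, but a median log2 ratio of -0.05. Polr2b, the second-largest subunit gene, had 23.9 FPKM in high phosphate and 24.2 FPKM in control (log2 ratio -0.02), and the stalk gene Polr2d had 24.8 FPKM in both (log2 ratio 0.00). Polr2a encodes the largest subunit, whose C-terminal repeats carry the phosphorylation marks of initiation and elongation. It was listed at 32.8 FPKM in high phosphate and 37.3 FPKM in control (log2 ratio -0.18). The assembly platform genes were nearly level, Polr2c with 40.9 FPKM in high phosphate and 42.3 FPKM in control, and Polr2j, the most abundant of the group, with 80.3 FPKM in high phosphate and 83.4 FPKM in control. Polr2g, for the partner of Polr2d in the stalk, differed most, with 4.96 FPKM in high phosphate and 6.21 FPKM in control (log2 ratio -0.27). The stalk partners also differed in level within each library, where the FPKM of Polr2d, which is per length, was 5.0 times that of Polr2g in high phosphate and 3.99 times in control. The subunits that polymerases I and III share pointed in opposite directions as deposited, though both were lower at equal sums, with Polr1d at 67.8 FPKM in high phosphate and 62.1 FPKM in control (log2 ratio 0.13) and Polr1c at 27.2 FPKM in high phosphate and 31.3 FPKM in control (log2 ratio -0.20). The 5 subunits common to all nuclear polymerases, encoded by Polr2e, Polr2f, Polr2h, Polr2k and Polr2l, and the mitochondrial polymerase gene Polrmt were not analysed here.

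**Figure D2:**
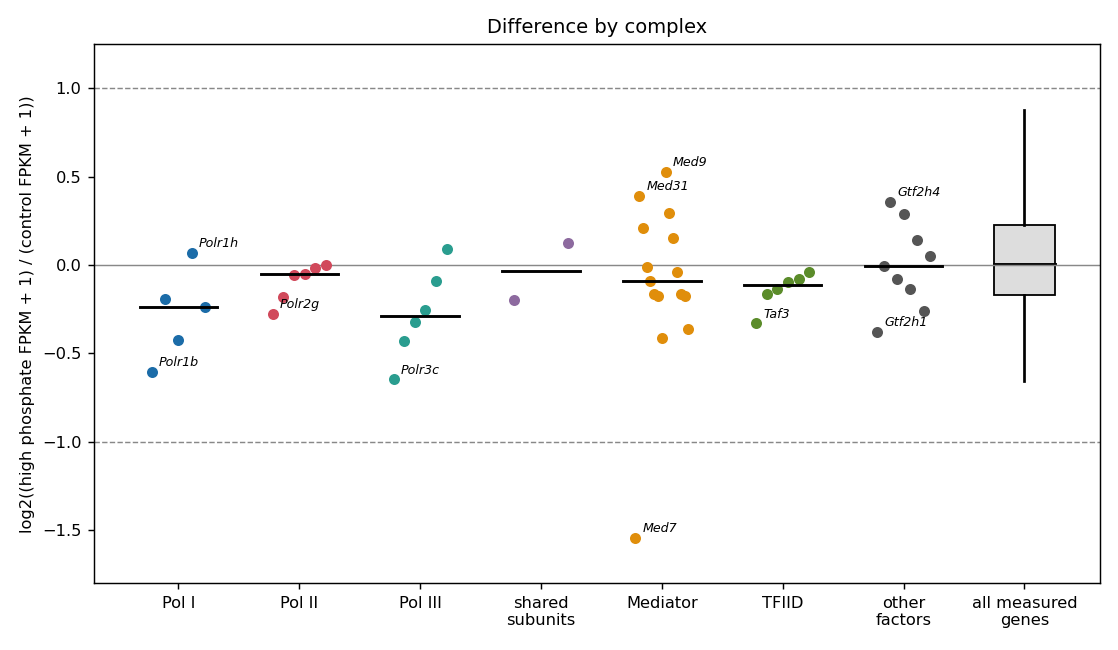
Log2 ratio of high over control phosphate (vertical axis, FPKM + 1) for each member by complex, with black bars at group medians; the box at the right spans the middle 50% and its whiskers the central 95% of all measured genes (-0.65 to 0.88). The polymerase I and III medians lie at -0.24 and -0.29, those of the other groups between -0.11 and -0.01, and Med7 at -1.54 is the 1 point beyond the dashed 2-fold lines.

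Mediator held the widest range of differences of any group, from -1.54 to 0.53 on the log2 scale, around a median of -0.09. Of its 15 genes, 10 were lower and 5 higher, or 11 lower and 4 higher at equal sums. At equal sums 67.8% of all measured genes were lower, so the Mediator count lay near that share. Med7 (Entrez 100911235) encodes a subunit of the middle module, which joins the head of Mediator to its tail. Its mRNA was listed at 2.85 FPKM in high phosphate, against 10.2 FPKM in control, a listed ratio of 0.279. By level it stood at place 42 of the 49 members in high phosphate and at place 32 in control, the largest move of any member. Without Med7, which was left out after its value was seen, the median of the other 14 Mediator genes was -0.06 and that of the other 48 members -0.09.

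The other 6 genes of the middle module were split, 3 higher and 3 lower in high phosphate. Med9 (Entrez 497914) had the highest log2 ratio of all members, with 12.1 FPKM in high phosphate and 8.1 FPKM in control (log2 ratio 0.53). Med31, whose product binds that of Med7 in yeast, had 23.6 FPKM in high phosphate and 17.7 FPKM in control (log2 ratio 0.39). Med4 had 12.3 FPKM in high phosphate and 9.82 FPKM in control (log2 ratio 0.30). These 3 genes stood higher, while Med21, whose product also pairs with that of Med7 in yeast, had 21.7 FPKM in high phosphate and 24.4 FPKM in control (log2 ratio -0.16). Med19 had 12.4 FPKM in high phosphate and 14.1 FPKM in control (log2 ratio -0.17), and Med10, the most abundant Mediator mRNA, 53.4 FPKM in high phosphate and 53.9 FPKM in control (log2 ratio -0.01). Summed over its 7 measured genes, the middle module was level as deposited, at 138 FPKM in each library, with Med10 as the largest part. At equal library sums its sum was lower in high phosphate.

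The 3 measured tail genes, whose products meet DNA-bound activators, all stood lower in high phosphate, with a median log2 ratio of -0.36. Med24 had 8.78 FPKM in high phosphate and 12.0 FPKM in control (log2 ratio -0.41), and Med23, the subunit contacted by the activator ELK1, had 7.08 FPKM in high phosphate and 9.37 FPKM in control (log2 ratio -0.36). Med29 was nearly level, with 23.0 FPKM in high phosphate and 23.7 FPKM in control (log2 ratio -0.04). The head module, which touches the polymerase, had smaller differences: Med6 was listed at 25.6 FPKM in high phosphate and 27.3 FPKM in control, Med11 at 10.9 FPKM in high phosphate and 12.4 FPKM in control, and Med20 at 19.8 FPKM in high phosphate and 17.7 FPKM in control. Their log2 ratios were -0.09, -0.17 and 0.16, so the module held both directions as deposited, with Med20 lower at equal sums. Med28 had 25.7 FPKM in high phosphate and 29.1 FPKM in control (log2 ratio -0.17), and Med30 had 25.2 FPKM in high phosphate and 21.7 FPKM in control (log2 ratio 0.21). Apart from Med7 and Med10, the levels of Mediator mRNAs ran from 7.08 to 25.7 FPKM in high phosphate and from 8.1 to 29.1 FPKM in control.

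Among the genes of the kinase module, which holds Mediator back from the polymerase, Med12 lay just under the threshold, with a mean of 0.625 FPKM, and was listed at 1.03 FPKM in high phosphate and 0.22 FPKM in control. The gene just inside the threshold was Taf12, with a mean of 1.55 FPKM. Med12l was listed at 0.06 FPKM in high phosphate and 0.04 FPKM in control, and Med13 at 0 in both libraries, which can also be a failed estimate. The other listed genes under the threshold were Polr2m, Taf6, Taf7l, Taf11, Gtf2h2 and Gtf2e2, each under 1 FPKM in both libraries. Of these, Taf6 was listed at 0 in high phosphate and at 0.95 FPKM in control.

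All 6 measured TFIID genes stood slightly lower in high phosphate, with log2 ratios from -0.33 to -0.04 and a median of -0.11. They also spanned the widest range of levels of any group. Taf10 and Taf9, histone-fold TAFs that are subunits of the coactivator SAGA as well, were the most abundant members of the whole machinery. Taf10 had 160 FPKM in high phosphate and 168 FPKM in control (log2 ratio -0.08), and Taf9 had 111 FPKM in high phosphate and 124 FPKM in control (log2 ratio -0.16). The other TFIID genes were listed far lower. Taf7, a regulator of the acetyltransferase activity of TAF1, had 6.78 FPKM in high phosphate and 7.3 FPKM in control (log2 ratio -0.09). Taf5, which scaffolds the complex, had 2.77 FPKM in high phosphate and 2.88 FPKM in control (log2 ratio -0.04). Taf3, whose PHD finger reads trimethylated histone H3, differed most, with 1.96 FPKM in high phosphate and 2.72 FPKM in control (log2 ratio -0.33). Taf12, a histone-fold TAF, had 1.43 FPKM in high phosphate and 1.67 FPKM in control (log2 ratio -0.14). The ratio of highest to lowest level in the group was 112 in high phosphate and 101 in control, although subunits of 1 complex are being compared.

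The 9 other general factors stood on both sides, with 4 higher and 5 lower (2 and 7 at equal sums) and a median log2 ratio of -0.01. Of all measured genes, 67.8% were lower at equal sums. TFIIH, the factor that opens promoter DNA and also serves nucleotide excision repair, was split in direction: of its 6 measured core genes, the helicase genes Ercc2 and Ercc3 of the partner list included, 3 were higher and 3 lower as deposited, and 2 higher and 4 lower at equal sums. Gtf2h5, its smallest subunit, had 51.2 FPKM in high phosphate and 41.7 FPKM in control (log2 ratio 0.29). Gtf2h4 had 2.55 FPKM in high phosphate and 1.77 FPKM in control (log2 ratio 0.36), and Gtf2h3 had 12.8 FPKM in high phosphate and 11.4 FPKM in control (log2 ratio 0.14). Gtf2h1, by contrast, had 16.7 FPKM in high phosphate and 22 FPKM in control (log2 ratio -0.38). Ercc2 had 4.64 FPKM in high phosphate and 5.92 FPKM in control (log2 ratio -0.30), and Ercc3 had 15.4 FPKM in high phosphate and 17.6 FPKM in control (log2 ratio -0.18).

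Among polymerase II factors outside TFIIH, Gtf2f1, the large subunit of TFIIF, had 23.4 FPKM in high phosphate and 28.2 FPKM in control (log2 ratio -0.26). Gtf2e1, the large subunit of TFIIE, had 2.8 FPKM in high phosphate and 3.02 FPKM in control (log2 ratio -0.08). Gtf3a encodes TFIIIA, the zinc finger factor of the polymerase III genes for a ribosomal RNA, and had 48.8 FPKM in high phosphate and 47.2 FPKM in control (log2 ratio 0.05). The difference of Gtf3a was small beside those of most polymerase III subunit genes, and it stood lower at equal sums. Taf1a, of the polymerase I selectivity factor SL1, had 3.04 FPKM in high phosphate and 3.06 FPKM in control (log2 ratio -0.01). Taf15, an RNA-binding protein that carries a TAF name, had 24.4 FPKM in high phosphate and 27.0 FPKM in control (log2 ratio -0.14).

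**Figure D3:**
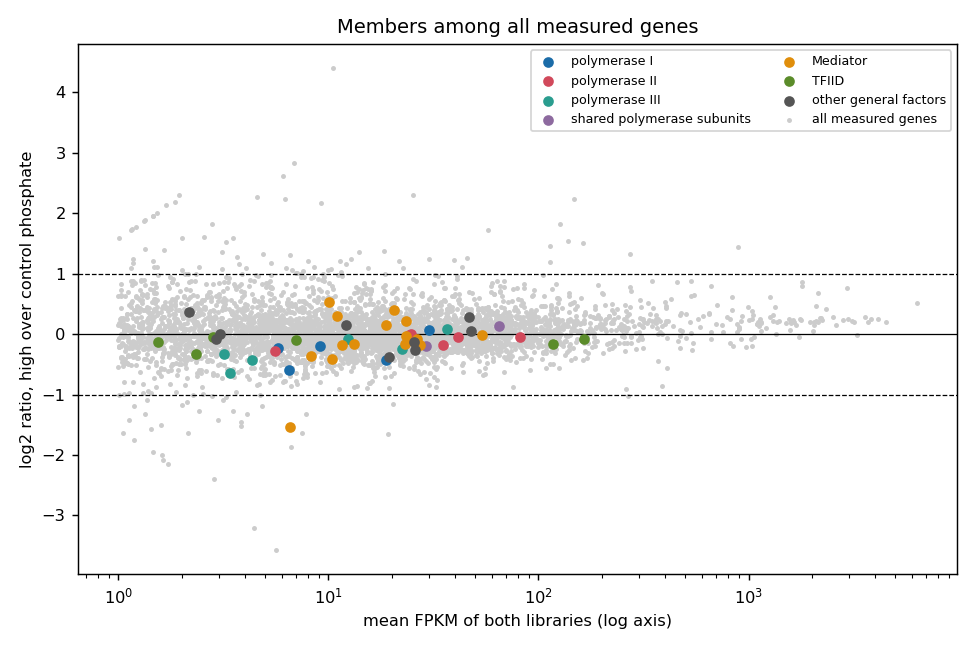
Log2 ratio of high over control phosphate (vertical axis) against mean FPKM of both libraries (horizontal log axis) for all 4366 measured genes in grey and the 49 members in colour. Of the 9 members under 5 FPKM, 8 lie below 0, and Med7 is the 1 member beyond the dashed lines at 2-fold.

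The direction was seen at low and at higher levels. Of the 9 members with a mean under 5 FPKM, 8 were lower in high phosphate, against 49.4% of the measured genes at those levels. Of the 40 members from 5 FPKM upward, 28 were lower, which is 70.0%, against 49.4% of such measured genes. Across the 49 members, levels in the libraries had a Pearson r of 0.977 on the log scale and a Spearman rho of 0.976, and across all measured genes 0.980 and 0.979. These describe genes within the same 2 libraries and are not over independent samples.

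The size of the shift depended on how the libraries were scaled to each other. With the sums of listed FPKM made equal, 43 of the 49 members (87.8%) lay below 0, against 67.8% of measured genes. The median was then -0.25 for the members and -0.15 for all measured genes. Of the 13 members that stood higher as deposited, 7 turned lower, among them Polr1d, Polr1h, Polr2d, Med20, Gtf3a and Gtf2h3, while Med4, Med9, Med30, Med31, Gtf2h4 and Gtf2h5 were still higher. As deposited and under the 4 rescalings, the median of the members minus that of all measured genes was -0.10. Each rescaling multiplied the whole high phosphate library by a common factor. This distance could therefore hardly change, and its constancy is no support for it.

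**Figure D4:**
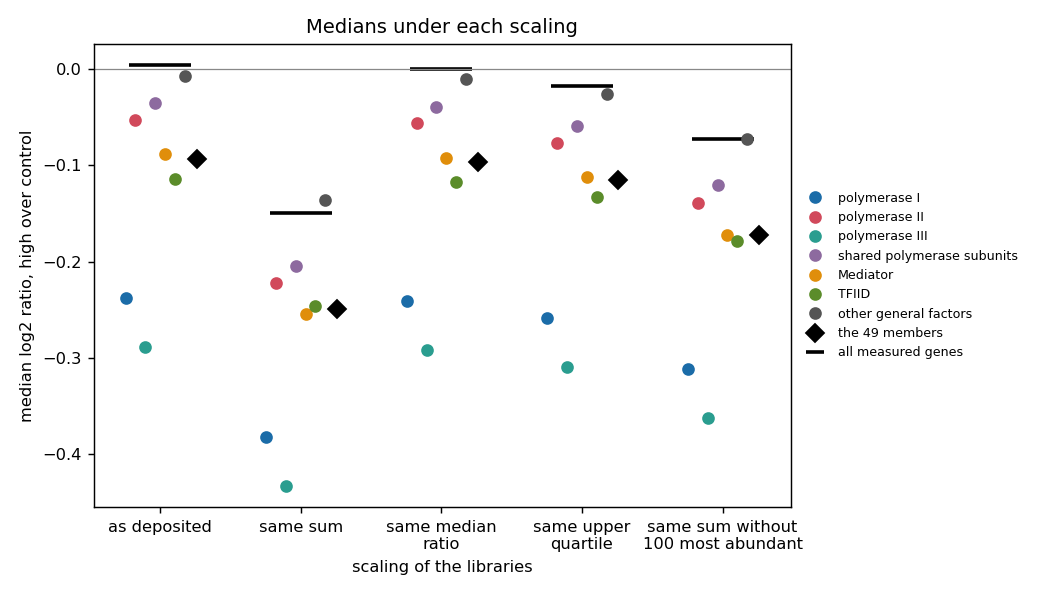
Median log2 ratio of high over control phosphate (vertical axis) for each complex, for the 49 members (diamonds) and for all measured genes (bars), with FPKM as deposited and under 4 rescalings of the libraries. The polymerase I and III medians are the lowest under each, at -0.24 and -0.29 as deposited and -0.38 and -0.43 at the same sum. A rescaling applies a common factor to the high phosphate library, so this order could hardly change. Over genes from a mean of 5 FPKM, not drawn here, the polymerase III median was -0.09, as was that of the members.

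Partners of the machinery that do not carry its symbols were read from a separate list of 80 symbols, of which 33 genes were measured. Of these, 21 were lower and 12 higher in high phosphate, with a median log2 ratio of -0.13, where 49.4% of all measured genes were lower and their median was 0.00. At equal sums 29 were lower and 4 higher, with a median of -0.28, where 67.8% of all measured genes were lower and their median was -0.15. As deposited, 1 of the 33 was at least 1.5-fold apart, against 10.6% of all measured genes. This was Hexim1, the inhibitor of the elongation kinase P-TEFb, listed at 21.3 FPKM in high phosphate and 39.0 FPKM in control (log2 ratio -0.84). The kinase itself, Cdk9, had 48.99 FPKM in high phosphate and 59.2 FPKM in control (log2 ratio -0.27). Highest was the elongation factor gene Tcea3, with 3.56 FPKM in high phosphate and 2.28 FPKM in control (log2 ratio 0.48). For TFIIH, Mnat1 and Ccnh, of its kinase part, had log2 ratios of 0.13 and 0.02, beside those of Ercc2 and Ercc3 given above. Cdk19, a kinase of the Mediator kinase module, had 3.28 FPKM in high phosphate and 2.48 FPKM in control (log2 ratio 0.30). The mitochondrial transcription factor genes Tfb2m, Tfam and Tfb1m had log2 ratios of -0.45, -0.16 and -0.10. Of the other mitochondrial genes measured in the list, Mterf1 was lower (log2 ratio -0.16). Tefm was higher as deposited, with 5.91 FPKM in high phosphate and 5.44 FPKM in control (log2 ratio 0.10).

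Some of these values may hold reads of other genes. In the GRCr8 annotation 19 members overlap another protein-coding gene, 17 of them on the other strand only, and whether counting used strand is not stated. Among genes named above, Polr3c overlaps Rnf115, Polr1g overlaps Ercc1, Polr2b overlaps Igfbp7, Med24 overlaps Thra and Taf9 overlaps Ak6 and Rad17, all on the other strand. On the same strand, Polr3k overlaps Pcmtd2 and Taf7 overlaps Slc25a2. Taf10, the most abundant member, overlaps Ilk on the other strand. Ilk was listed at 272 FPKM in high phosphate and 280 FPKM in control. No overlap was annotated for Med7, Polr1b or Med9. Pseudogenes named after them exist for 7 members, Med29, Polr1d, Polr3d, Polr3g, Taf12, Taf15 and Taf9, and how the authors handled reads with more than one match is not stated either.

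Both libraries held the myoblast genes Des, listed at 153 FPKM in high phosphate and 129 FPKM in control, and Cav3, at 35.3 FPKM in high phosphate and 28.5 FPKM in control. The myogenic factor Myod1 was listed at 1.59 FPKM in high phosphate and 6.11 FPKM in control, and Myog at 0.06 FPKM in high phosphate and 0.13 FPKM in control. These are 4 of the 9 myoblast genes looked up, and the others were not analysed here. Markers of cardiomyocytes, endothelium and blood cells summed to 0.23, 0.31 and 1.67 FPKM in high phosphate and to 0.21, 0.06 and 1.18 FPKM in control. These sums cover 2 of 7 cardiomyocyte, 3 of 4 endothelial and 4 of 4 blood cell markers. The others were not analysed here, so the cardiomyocyte sum leaves out most of its markers. The 7 fibroblast markers summed to 4427 FPKM in high phosphate and 4021 FPKM in control, with Pdgfra at 0 in both. Most of these sums came from S100a4, listed at 3249 FPKM in high phosphate and 3291 FPKM in control. Without S100a4, set apart after its value was seen, the other 6 summed to 1178 FPKM in high phosphate and 730.0 FPKM in control, a ratio of 1.61, with 5 of them higher in high phosphate. Col3a1 had 844 FPKM in high phosphate and 489 FPKM in control, and Thy1 317 FPKM in high phosphate and 232 FPKM in control. The 4 smooth muscle markers summed to 3839 FPKM in high phosphate and 2520 FPKM in control. Most of these sums came from Acta2, listed at 2651 FPKM in high phosphate and 1647 FPKM in control. Tagln had 1146 FPKM in high phosphate and 845 FPKM in control, and Cnn1 40.8 FPKM and 28.1 FPKM. Myh11 was level, at 0.61 FPKM in high phosphate and 0.60 FPKM in control. The part of these marker differences in the results above was not tested. A change in the number of cells of a kind cannot be told apart from a change in RNA per cell.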

How the data were processed

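The deposited values are FPKM by the authors, per the file headers, given to 2 decimals, with 1 library per phosphate level. Cufflinks 2.2.1 with Cuffdiff, TopHat2 2.1.1, bcl2fastq and the rat build Rnor_6.0 are named, per the submitters' processing notes. Their roles, the annotation, strand settings, the treatment of multiply mapped reads and scaling are not stated there. The files hold no counts, so depth is unknown and no counting interval is given.

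Each file held 8039 entries, of which 236 without a usable identifier were left out. Of the other 7803, 7746 had a symbol in NCBI's gene table for GRCr8. Genes reaching a mean of 1 FPKM were compared as log2((high phosphate FPKM + 1)/(control FPKM + 1)), and a gene counted from 2-fold on this scale. Alternatives were pseudocounts of 0.1 and 0.5, 4 rescalings, other filters and folds, and other make-ups of the groups. Members, groups and lists were chosen with earlier results of these data known. All members could be named, though 1 is counted here without its own values, which are not reported here; of the partner list, genes at least 1.5-fold apart and at either end are named by rule, and Cdk9, Cdk19 and the TFIIH and mitochondrial factors were added after their values were seen. The motifs and the rule for the promoters shown were also chosen after the values were seen. The calculations were tested on simulated data with known answers. The planted changes were larger than that of any member, so this checks the arithmetic and not whether small shifts can be told apart. They used matplotlib 3.10.9, scipy 1.17.1, pandas 2.3.3 and numpy 2.4.6 in Python 3.11.15.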

Additional observations from a re-analysis of the deposited data

How the results depend on the processing

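Rescaling both libraries to the same sum moved the median log2 ratio of all measured genes to -0.15 and the medians of the members to -0.25, polymerase I to -0.38, polymerase II to -0.22, polymerase III to -0.43, the shared subunits to -0.20, Mediator to -0.25, TFIID to -0.25 and the other general factors to -0.14. From a mean of 5 FPKM the polymerase III median was -0.089, over 3 genes. At 1.5-fold 3 members were lower and at 3-fold 0. Med7 stayed at least 2-fold lower under both pseudocounts and all 4 rescalings, and no other member passed 2-fold in either direction under these. With a pseudocount of 0.1, 3 of the 49 log2 ratios moved by 0.1 or more. Medians under every other alternative run moved by less than 0.1. No paired analysis was possible because each phosphate level had 1 library; for the same reason no replicate could be left out, and the error of every value is unknown.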
